A study of Mus musculus with 12 samples.

Results

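The p53 pathway is described here through 10 genes: Trp53, which encodes p53 itself, its inhibitors Mdm2 and Mdm4, and the targets Cdkn1a, Ccng1, Bax, Bbc3, Sesn1, Sesn2 and Zmat3. These genes were set by name, whether or not they had a peak. A gene was counted as called in each of the 6 lists of mRNA peaks of N6-methyladenosine (m6A) that held its symbol. A symbol missing from a list was counted as not called there. Of the 10 genes, 7 had a peak in at least 1 list, out of 10030 genes with a peak in all. The H/R group (n = 3) was exposed to hypoxia/reoxygenation, 12 h at 5% O2 followed by 48 h at standard oxygen, which models ischemia and reperfusion. The control group (n = 3) was kept without this exposure. Both groups were C17.2, an immortalised line of mouse neural stem cells (NSCs) with the label WT, so that all libraries came from a single line.

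In methylated RNA immunoprecipitation sequencing (MeRIP-seq), RNA fragments bound by an antibody against m6A are sequenced beside the input RNA, and a peak is a stretch where the antibody fraction (IP) exceeds the background. The labels held 12 samples, 3 of IP and 3 of input in each group, and the lists stood for libraries A, B and C of each group. Nothing in the labels said that replicates were separate cultures, so the p-values reflect the spread of these libraries alone, and that spread may be technical. The H/R lists held 18706, 13954 and 22038 mRNA peaks and the control lists 12180, 8932 and 7863. The median fold enrichment of their peaks was 9.34, 15.5 and 10.1 in the H/R lists and 21.8, 33.9 and 28.0 in the control lists. The read totals behind the lists were not used here, and the part of depth in these differences was not tested. As a check of the labelled cell type, 5 of 10 markers of neural stem cells had a peak (Hes1, Msi1, Nes, Notch1 and Sox2), and Fabp7, Msi2, Pax6, Sox1 and Vim had none. Peaks were listed for 2 of 6 neuron markers, 1 of 5 astrocyte markers, 3 of 6 oligodendrocyte lineage markers, 1 of 5 microglia markers and 3 of 6 fibroblast markers. A peak shows that an RNA was captured and says little about its level, so the cell type could not be settled from the lists.

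p53 is a transcription factor that is kept low by MDM2, a ubiquitin ligase, and by MDM4, its partner, and that accumulates after DNA damage or other stress. It switches on genes that halt the cell cycle, start apoptosis or adjust metabolism, and Mdm2 is itself among its targets, which closes a feedback loop. m6A is placed on adenosines within the DRACH sequence (any base but C, then A or G, then AC, then any base but G), often near stop codons, and is known to affect the stability and translation of mRNAs.

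In 6 of the 7 genes with a peak, a peak lay on the last exon and held the stop codon. These sequences are shown because they give the DRACH match nearest to the stop codon in each of these 6 last-exon peaks. They were read on the transcript strand from RefSeq's sequence of the mouse build mm10, 5′ to 3′, with the match in capitals.
Mdm2 (chr10:117690196-117690216, minus strand): caactagcTGACCtgctcaca
Mdm4 (chr1:132991615-132991635, minus strand): tactaggaGGACCaggtcatt
Cdkn1a (chr17:29099377-29099397, plus strand): gcaagagaAAACCctgaagtg
Bbc3 (chr7:16317255-16317275, plus strand): gacgtcggAGACTtggggggc
Sesn1 (chr10:41907343-41907363, plus strand): ccggtataTGACCtgatgcct
Sesn2 (chr4:132493706-132493726, minus strand): acatgaccTGACTaccccgta
Distances were counted from the A before the C of the match to the nearest base of the stop codon. In Sesn2 this A lay in the stop codon itself, a distance of 0 bases. It lay 3 bases from the stop codon in Sesn1, 4 in both Mdm2 and Cdkn1a and 31 in both Mdm4 and Bbc3. In Cdkn1a and Sesn1 it stood in the coding sequence, and in Mdm2, Mdm4 and Bbc3 in the 3'UTR. A peak does not say which adenosine within it carried the mark. Each match shown was picked as the nearest one, and the regions of these genes held 19.8 DRACH matches per kb. Peak edges mostly followed exon ends. Holding the stop codon and the short distances therefore do not show that m6A lay near it. The share of all genes with such a peak was not counted.

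The number of the 10 genes that were called overlapped between the groups. The H/R lists called 7, 6 and 6 of the 10 genes (libraries A, B and C), and the control lists 6, 6 and 4. This gave 6.33 ± 0.577 genes in the H/R group and 5.33 ± 1.15 in the control group (SD, n = 3 each). Of all 10030 genes with a peak, the H/R lists called 80.9, 66.2 and 89.1% and the control lists 64.5, 51.9 and 46.9%. That base leaves out genes without a peak, whereas the 10 include such genes. Together the 10 genes held 14, 9 and 10 peaks in the H/R lists and 9, 7 and 6 in the control lists, 33 against 22 of 55 peaks. The ratio of mean peaks, H/R over control, was 1.5 for these genes and 1.89 for all mRNA peaks.

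**Figure D1:**
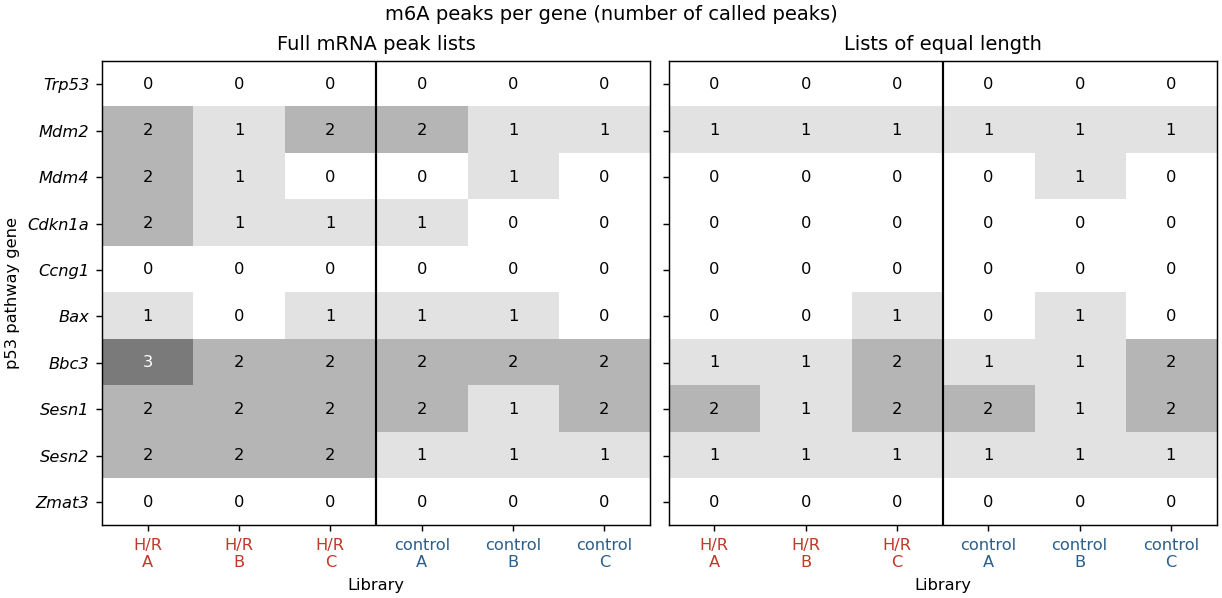
Number of called m6A peaks of each p53 pathway gene (rows) in each library (columns), with the 3 H/R libraries left of the 3 control libraries. The left panel uses the full lists, where Sesn2 held 2 peaks in every H/R list and 1 in every control list, and the right panel keeps the peaks with the highest p scores so that each list has 7863, where Sesn2 held 1 in every list.

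Mdm2, Bbc3, Sesn1 and Sesn2 were called in all 6 lists, as were 39.5% of the 10030 genes with a peak. None of the 10 was called in every H/R list and in no control list, which held for 4.96% of genes, and none the other way round. Sesn2 alone had more peaks in every H/R list than in every control list, which held for 14.8% of genes, and none of the 10 had fewer. By the two-sided exact permutation test of 3 against 3 libraries the smallest possible p is 0.1, so no comparison of this kind could pass 0.05. These shares are over genes with a peak, and of the 10 genes 7 had one, too few to set a count of 0 or 1 apart from them.

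Trp53 had no mRNA peak in any of the 6 lists. No mRNA peak listed under another name lay within its locus either (chr11:69580359-69591873). The same was true of Ccng1, which encodes cyclin G1, a target that recruits a phosphatase to MDM2, and of Zmat3, which encodes a zinc finger protein that binds RNA. A missing peak does not tell an unmethylated RNA from one that is scarce or thinly sequenced, and in a culture measured as a whole, fewer cells with an RNA and less of it per cell cannot be told apart. By comparison, 42.8% of 21924 protein coding symbols of the mouse annotation had a peak in at least 1 list.

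Among the inhibitors of p53, Mdm2 had a strong peak in every library and Mdm4 a weak one in some. The Mdm2 peak covered the whole last exon (exon 12 of 12, chr10:117688875-117690785, 1911 bases) with the same edges in all 6 lists, and 69.9% of it was 3'UTR. Its fold enrichment was 26.94, 33.32 and 28.07 in the H/R lists and 52.25, 67.89 and 47.81 in the control lists. Every H/R value lay below every control value, a log2 difference of -0.92 (exact permutation p = 0.1, adjusted over 3966 genes 0.186). The strongest fold was lower in every H/R list for 53.6% of the genes called in all 6 lists, and the median log2 difference over these 3966 genes was -0.75, so Mdm2 went the way of most genes. Within its own list the Mdm2 peak stood at the percentiles 91.6, 87.0 and 90.9 of fold in the H/R lists and 89.2, 86.1 and 81.9 in the control lists, and there the groups overlapped.

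The p score of a peak, -log10 of the peak caller's p multiplied by 10, cannot pass 3100 in these lists. That of the Mdm2 peak was at this limit in all 3 H/R lists and in control A and B, and 2858.85 in control C. A second Mdm2 peak covered exon 10 (chr10:117692582-117692737, 156 bases of coding sequence). Its fold was 6.47 in H/R A, 6.58 in H/R C and 10.76 in control A, and it was not called in the other 3 lists. The same 3 libraries listed it again among the circular RNA peaks, with equal values, under a circle with the same lowest coordinate. The lists thus did not separate linear from circular Mdm2 RNA there.

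Mdm4 was called in 3 lists. Its peak covered the first part of the last exon (chr1:132990424-132992225, exon 12 of 12), from the start of that exon to a point well before its end. Its fold was 8.22 in H/R A, 12.27 in H/R B and 24.96 in control B, with p scores of 209.37, 98.8 and 90.62. H/R A held another peak on exon 10, with a fold of 4.4. For Mdm4 the presence of a peak thus followed neither group.

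The growth arrest target Cdkn1a encodes p21, an inhibitor of cyclin-dependent kinases. It was called in H/R A, B and C and in control A. The peak covered the last exon (exon 3 of 3, chr17:29099344-29100722, 1379 bases, 96.4% of it 3'UTR). Its fold was 10.7, 19.78 and 11.72 in the H/R lists and 22.76 in control A, and its p score 471.8, 105.36 and 57.15 in the H/R lists and 97.04 in control A. The fold of control A was above those of all 3 H/R lists, and its p score lay within theirs. H/R A also held a peak on exon 1 (90 bases, fold 7.78). Peaks per library were 2, 1 and 1 in the H/R group and 1, 0 and 0 in the control group (difference 1.0, exact permutation p = 0.3, adjusted over all genes 0.898). Without control A, Cdkn1a was called in every H/R list and in no control list, a call that 10.8% of genes then met.

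**Figure D2:**
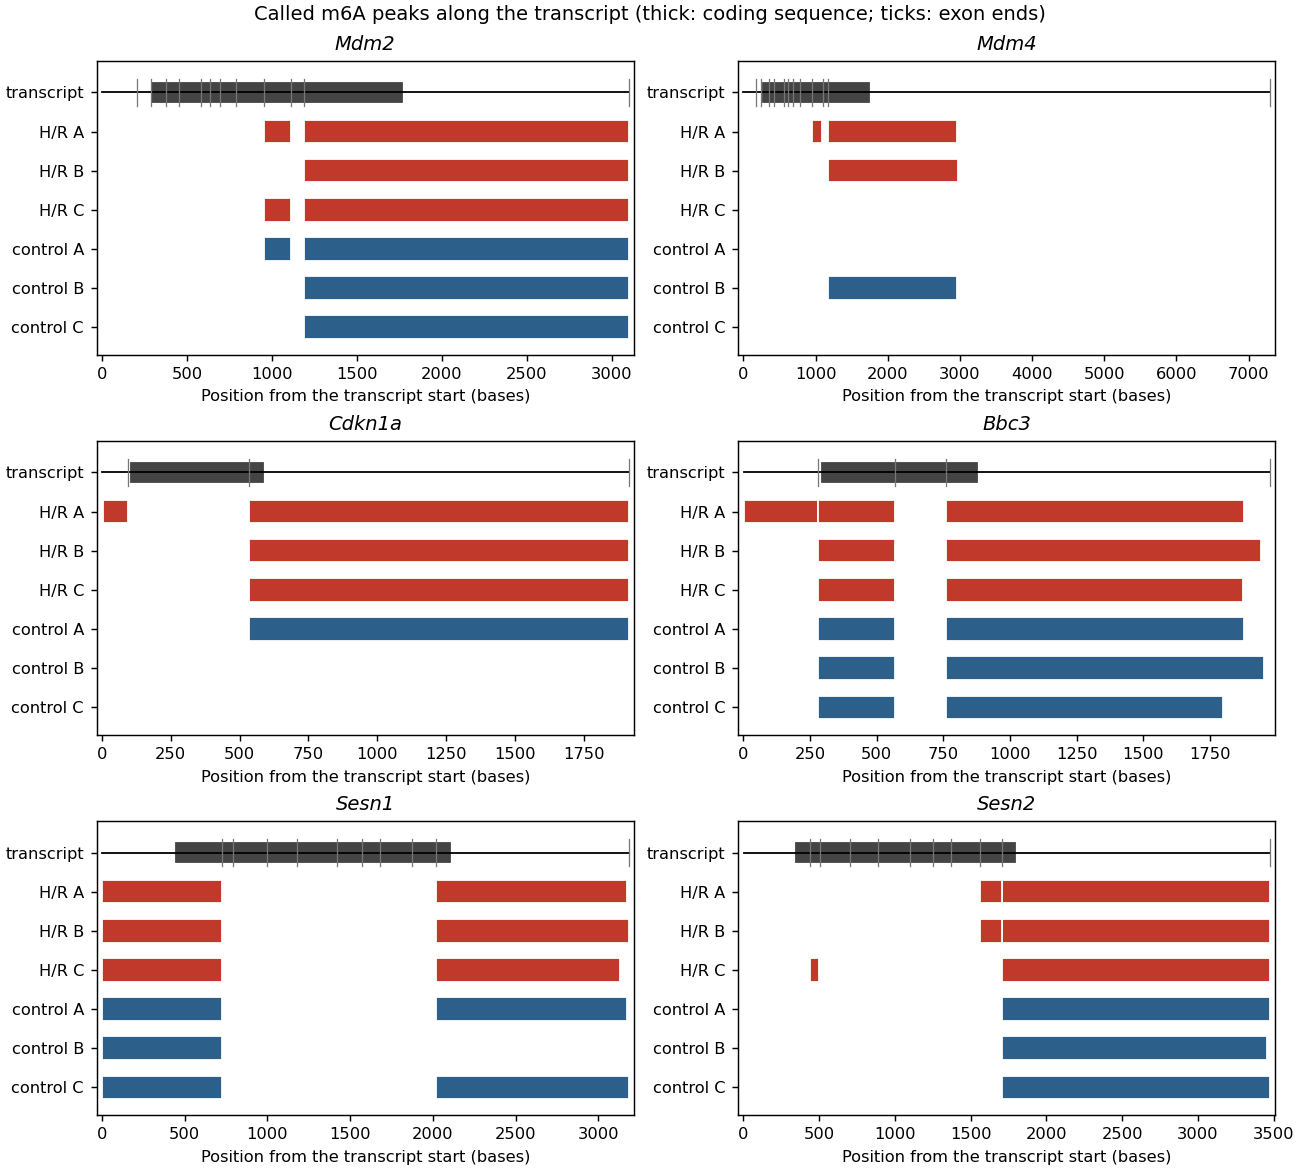
Called m6A peaks along the transcripts of 6 p53 pathway genes, with position from the transcript start in bases on the horizontal axis. The top line is the transcript with the coding sequence as a thick bar and exon ends as ticks, and below it stand the 3 H/R libraries (red) above the 3 control libraries (blue). Most peak edges stood at exon ends, and each gene shown had a peak on its last exon in at least 3 libraries.

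The apoptosis targets were Bax, which encodes a protein that permeabilises the outer mitochondrial membrane, and Bbc3, which encodes PUMA, a protein with a BH3 domain that frees or activates BAX. Bbc3 had the peak with the highest fold enrichment of the 10 genes in every list. Its peak on the last exon (exon 4 of 4, chr7:16317118-16318312, 90.2% of it 3'UTR) had a fold of 105.85, 73.32 and 115.33 in the H/R lists and 90.23, 223.13 and 120.56 in the control lists. These values overlapped (log2 difference -0.48, exact permutation p = 0.4, adjusted 0.462). They stood at the percentiles 99.8, 98.0 and 99.7 of the H/R lists and 96.8, 99.3 and 97.6 of the control lists. Few peaks in any library were thus enriched more than that of Bbc3.

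A second Bbc3 peak covered exon 2 (chr7:16312126-16312414, 289 bases, 274 of them coding and holding the start codon), also in all 6 lists. Its fold was 15.69, 19.32 and 24.85 in the H/R lists and 17.14, 26.93 and 17.51 in the control lists, and the groups overlapped. Its p score was 368.06, 202.48 and 818.31 in the H/R lists and 170.98, 66.85 and 63.66 in the control lists, every H/R value above every control value. For the highest p score of a gene this held for 49.1% of the genes called in all 6 lists, and the share over single regions was not counted. The exon 2 peak held no DRACH match, whereas the last-exon peak held 22. H/R A alone had another peak, on exon 1 (fold 8.33). Bbc3 thus kept the same 2 peaks in every library, and its counts were 3, 2 and 2 in the H/R lists and 2, 2 and 2 in the control lists.

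In addition, the lists of long noncoding RNAs (lncRNAs) held a peak between these exons, on a noncoding Bbc3 transcript (ENSMUST00000147267, chr7:16313517-16313817, 301 bases). Its fold was 38.75, 41.17 and 52.24 in the H/R lists and 42.7, 51.98 and 31.76 in the control lists. It too was present in all 6 libraries with overlapping values.

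Bax was called in 4 lists, 2 of each group. Its only region (chr7:45466220-45466775, 556 bases) ran from exon 1 through the first intron into exon 2 of the main coding transcript, and 470 of its bases were intronic there. An annotated Bax transcript that keeps this intron spans the region. Its fold was 7.43 in H/R A, 7.91 in H/R C, 8.52 in control A and 16.34 in control B. Its p score was 486.73 and 809.71 in these H/R lists and 50.31 and 76.22 in these control lists. These folds stood at the percentiles 35.2 and 33.6 of the H/R lists and 1.62 and 4.15 of the control lists, so that the Bax peak was among the weakest of the control lists.

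Sesn1 and Sesn2 encode sestrins, stress proteins that restrain the growth kinase mTORC1 and limit oxidative damage. Sesn1 had a peak on exon 1 in all 6 lists (chr10:41810574-41811300, 727 bases, the 5'UTR and the start of the coding sequence). Its fold was 12.54, 23.28 and 18.81 in the H/R lists and 27.33, 43.53 and 19.66 in the control lists, and H/R B lay above control C (log2 difference -0.70, exact permutation p = 0.2, adjusted 0.283). Its p score was 1680.74, 854.26 and 1984.3 in the H/R lists and 305.48, 401.55 and 86.15 in the control lists. The Sesn1 peak thus had a higher p score in every H/R list without a higher fold.

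The Sesn1 peak on the last exon (exon 10 of 10, chr10:41907272-41908436) was called in 5 lists and was absent from control B. Its fold was 9.07, 11.61 and 10.94 in the H/R lists and 22.73 and 14.09 in control A and C, and each H/R value lay below both. This is easier to meet with 2 control lists, and the share over single regions was not counted. The highest p score of a gene was higher in every H/R list for 49.1% of the genes called in all 6 lists, Sesn1 among them. Mdm2, Bbc3 and Sesn2 could not meet this call, since each was at the limit of 3100 in at least 1 control list.

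**Figure D3:**
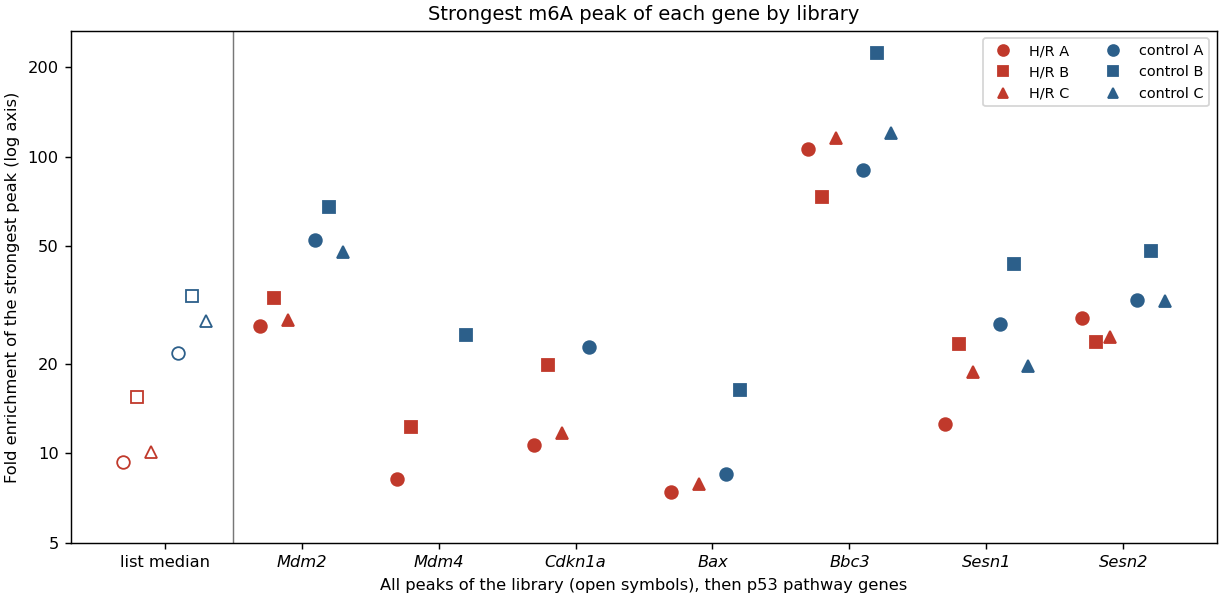
Fold enrichment of the strongest m6A peak of each p53 pathway gene (log axis), with a symbol per library, H/R (red) left of control (blue). Open symbols at the left give the median over all peaks of each library, which was lower in every H/R list. The strongest fold was lower in every H/R list for Mdm2 and Sesn2, while the groups overlapped for Bbc3 and Sesn1.

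Sesn2 was the gene of the 10 with the most measures (peaks, covered bases and strongest fold) that did not overlap between the groups. The peak on its last exon (exon 10 of 10, chr4:132492032-132493802, 95.1% of it 3'UTR) had a fold of 28.52, 23.67 and 24.63 in the H/R lists and 32.93, 48.03 and 32.73 in the control lists. Every H/R value was lower (log2 difference -0.55, exact permutation p = 0.1, adjusted 0.186), as for 53.6% of the genes called in all 6 lists. The difference was smaller than the median of -0.75 over these genes. Its percentile within its own list was 92.5, 74.5 and 88.3 in the H/R lists and 73.9, 72.3 and 61.9 in the control lists. The closest pair was 74.5 in H/R B and 73.9 in control A. Percentiles were higher in every H/R list for 31.1% of the genes called in all 6 lists, and they depend on how many weak peaks a list holds, so they are a description of the lists and no measure of a change in Sesn2.

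Each H/R list held a second Sesn2 peak and no control list did, which gave 2 peaks in every H/R list and 1 in every control list (difference 1.0, exact permutation p = 0.1, adjusted over all genes 0.669). The second peak was not at the same place. It covered exon 9 in H/R A and B (chr4:132494464-132494608, fold 6.52 and 7.52) and exon 2 in H/R C (chr4:132502565-132502628, fold 3.3). The folds lay at the percentiles 26.8, 6.02 and 0.381 of the H/R lists A, B and C, so these were weak peaks. Covered bases were 1916, 1916 and 1835 in the H/R lists and 1771, 1752 and 1771 in the control lists. More covered bases in every H/R list were found for 16.3% of genes, and of the 10 for Sesn2. With lists of equal length Sesn2 had 1 peak in each of the 6 lists.

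**Figure D4:**
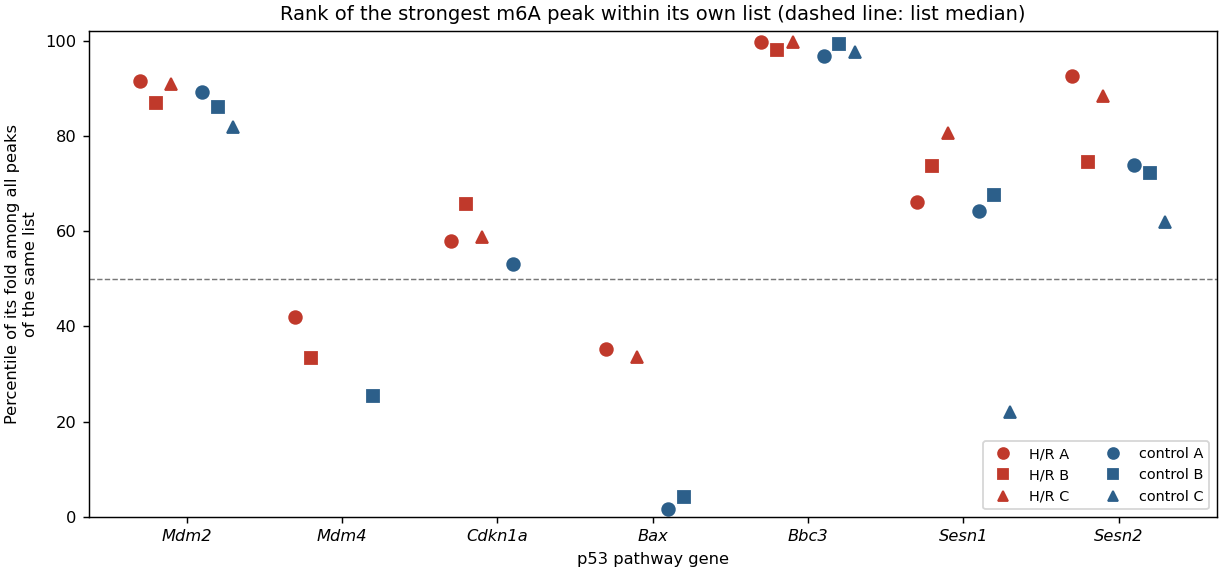
Percentile of the strongest peak's fold among all peaks of the same list for 7 p53 pathway genes, with a symbol per library, H/R (red) left of control (blue), and the list median as a dashed line. The lists differ in length and in their share of weak peaks, so percentiles are not comparable in size between groups. Bbc3 stood between 96.8 and 99.8 in every list, and Bax stood at 1.62 and 4.15 in the control lists that called it.

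The 55 peaks fell into 15 regions. Of these, 5 (33.3%) were in all 6 lists, namely the last exons of Mdm2, Sesn2 and Bbc3, exon 2 of Bbc3 and exon 1 of Sesn1, against 21.9% of all 27132 regions. None was in every H/R list and in no control list, which held for 6.21% of regions. In at least 1 H/R list and in no control list were 5 of the 15, on Bbc3 exon 1, Cdkn1a exon 1, Mdm4 exon 10 and Sesn2 exons 2 and 9, against 50.5% of all regions. In at least 1 control list and in no H/R list were 0 of the 15, against 2.56%. Every region that a control library called was therefore also called in an H/R library, but 15 regions are too few to set this apart from the 2.56%. The regions found only in H/R lists had folds of 3.3 to 8.33.

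Peak edges followed the exons. Of 51 peaks with a listed transcript in the annotation, 36 spanned a whole exon, 22 of 31 in the H/R lists and 14 of 20 in the control lists. The other 15 had 1 edge at an exon edge. Over all peaks of a library the share that spanned a whole exon was 64.5% to 77.8% in the H/R lists and 71.0% to 73.1% in the control lists. Length and covered bases of these peaks were thus mostly exon lengths. The lowest false discovery rate of any of the 55 peaks was 24.98%, that of the last-exon peaks of Mdm2, Bbc3 and Sesn2 in H/R A. By library the lowest was 24.98, 33.35 and 27.95% in the H/R lists and 35.96, 88.1 and 96.56% in the control lists. For exon 1 of Sesn1 it was 32.54, 59.75 and 33.35% in the H/R lists and 100% in every control list. For exon 2 of Bbc3 it was 70.27, 100 and 51.94% in the H/R lists and 100% in every control list. Being called in a list thus did not make a peak certain.

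DRACH and GGAC were counted on the transcript strand only. A GGAC followed by A, C or T is also a DRACH match. The 15 regions held 19.8 DRACH and 5.57 GGAC matches per kb, against 20.2 and 4.39 in 26041 regions of all genes. At least 1 DRACH match was in 13 of the 15 (86.7%, against 94.0% of all regions) and at least 1 GGAC in 11 (73.3%, against 66.9%). Regions differ in length, and a match is not a methylated site. The last exon of Sesn2 held the most of both, 42 DRACH and 15 GGAC matches. No DRACH match was in exon 2 of Bbc3 or in exon 2 of Sesn2.

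Besides the 10 genes, 91 genes of the pathway were searched in 6 lists, and 64 had a peak. Called in all 6 lists were 27 of these (42.2%, against 39.5% of all genes with a peak), 3 were called in every H/R list and in no control list (4.69%, against 4.96%), and none the other way round. More peaks in every H/R list were found for 12 of the 64 (18.8%, against 14.8%), and fewer for none. Of the 27, 13 had a lower strongest fold in every H/R list, a call that 53.6% of all such genes met. The single lists are small, and their counts are to be read against the same shares of 39.5% and 14.8%.

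Upstream of p53, 5 of 10 activating kinases and sensors had a peak, and 2 had more peaks in every H/R list. Trp53bp1, which encodes the DNA break sensor 53BP1, held 7, 4 and 5 peaks in the H/R lists and 3, 2 and 2 in the control lists. Its strongest fold was 39.11, 23.74 and 36.96 in the H/R lists and 66.19, 66.44 and 42.84 in the control lists, so that the number of peaks was higher and the fold lower in every H/R list. Hipk2, a kinase that phosphorylates p53 to favour apoptosis, held 5, 5 and 6 peaks in the H/R lists and 6, 4 and 3 in the control lists.

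Of 22 modifiers and cofactors of p53, 16 had a peak, 10 were in all 6 lists and 4 had more peaks in every H/R list. Ppp1r13l encodes iASPP, an inhibitor of p53. Its strongest fold was 84.53, 126.35 and 100.87 in the H/R lists and 68.85, 72.97 and 62.54 in the control lists. Every H/R value was higher, which 0.277% of the 3966 genes called in all 6 lists met. By the exact permutation test no adjusted p for the strongest fold of any of these genes was below 0.186. The percentile of the Ppp1r13l peak in its lists and its fold under other filters were not examined. Ppp1r13l held 3, 2 and 2 peaks in the H/R lists and 1, 1 and 1 in the control lists. The acetyltransferase genes Ep300 and Crebbp held 9, 8 and 9 and 8, 9 and 9 peaks in the H/R lists, against 7, 6 and 6 and 7, 6 and 7 in the control lists, more in every H/R list for both.

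Among targets of growth arrest 10 of 13 had a peak and 4 were in all 6 lists. Gadd45g and Gadd45a, which encode stress sensors that restrain the cell cycle, each held 1 peak in every list. The fold of Gadd45g was 46.9, 56.84 and 64.67 in the H/R lists and 99.32, 154.82 and 94.87 in the control lists. That of Gadd45a was 32.64, 47.3 and 32.07 in the H/R lists and 72.66, 87.0 and 71.5 in the control lists. Both were lower in every H/R list, as for most genes. Pml, the gene of the nuclear body protein PML, held 4, 4 and 4 peaks in the H/R lists and 4, 3 and 3 in the control lists.

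Among targets of apoptosis 13 of 17 had a peak and 5 were in all 6 lists, Aen, Siva1 and Phlda3 with the highest folds. None had more peaks in every H/R list. Aen, an apoptosis nuclease, held 4, 3 and 3 peaks in the H/R lists and 2, 3 and 1 in the control lists. Among targets of repair and metabolism 13 of 17 had a peak and 4 were in all 6 lists, and again none had more peaks in every H/R list. Xpc, a DNA damage recognition factor, held 6, 4 and 5 peaks in the H/R lists and 4, 5 and 3 in the control lists. Prkab1, a subunit of the energy sensor AMPK, and Polk, a translesion polymerase, held 1 or 2 peaks in every list.

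**Figure D5:**
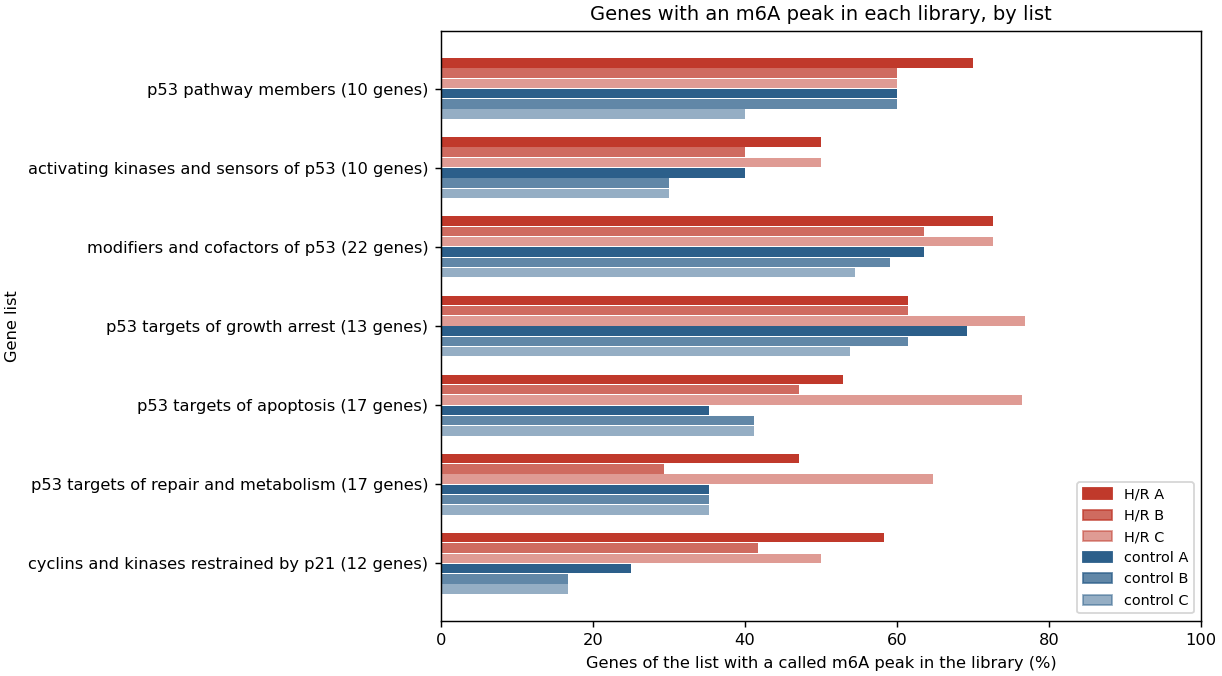
Share of the genes of each list (percent, axis from 0) with a called m6A peak in each library, with the 3 H/R libraries (red) above the 3 control libraries (blue). The cyclins and kinases restrained by p21 had peaks in 7, 5 and 6 of 12 genes in the H/R libraries and 3, 2 and 2 in the control libraries. Of all genes with a peak, 66.2% to 89.1% were called in the H/R libraries and 46.9% to 64.5% in the control libraries.

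The cyclins and kinases that p21 restrains held all the genes of the 6 lists called in every H/R list and in no control list when full lists were used. With a p score of at least 100 this call was met by 1 gene of this list and 2 targets of apoptosis. The share over all genes was not computed under that filter. Without H/R B the call was met by 4 genes of this list, 1 kinase or sensor, 1 target of apoptosis and 2 of repair and metabolism. In that setting 11.7% of all genes met it. The lists were not tested against each other. Peaks were found for 7 of the 12, 7, 5 and 6 of them in the H/R lists and 3, 2 and 2 in the control lists. Of all genes with a peak, the H/R lists called 80.9, 66.2 and 89.1% and the control lists 64.5, 51.9 and 46.9%. With full lists the genes called in H/R only were Ccne1, Ccne2 and Ccnb2, a call that 4.96% of all genes met. Ccne1, a cyclin of entry into S phase, held 3, 3 and 2 peaks in the H/R lists, with a strongest fold of 11.65, 14.86 and 15.34. Ccne2, its paralog, held 1 peak in each H/R list, with folds of 5.66, 18.29 and 9.37. Ccnb2, a mitotic cyclin, held 1, 1 and 2 peaks, with strongest folds of 4.7, 7.14 and 11.13. Against the median fold of the same lists, Ccnb2 lay below it in H/R A and B, Ccne2 in H/R A and C and Ccne1 in H/R B.

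Cdk1, the mitotic kinase, held 3, 3 and 2 peaks in the H/R lists and 1, 1 and 1 in the control lists, with overlapping folds. Ccnd2, a cyclin of the early G1 phase, held 1 peak in each list with a fold of 10.93, 11.96 and 10.01 in the H/R lists and 15.35, 18.11 and 17.19 in the control lists, lower in every H/R list. With lists of equal length none of the 91 genes was called in every H/R list and in no control list. Of all genes, 1.13% met this call there and 1.32% the reverse. Over all genes the share with more peaks in every H/R list (2.51%) came close to that with fewer (2.22%). Among 43 genes with a peak that the deposited lists assign to the p53 pathway, the 7 with a peak of the 10 genes included, 13 (30.2%, against 39.5% of all genes) were in all 6 lists and 8 (18.6%, against 14.8%) had more peaks in every H/R list. Called in every H/R list and in no control list were 4 (9.3%, against 4.96%), Ccnb2, Ccne1, Ccne2 and Igf1.

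Trp53cor1, the lncRNA known as lincRNA-p21, is a p53 target that lies near Cdkn1a, 30621 bases away and on the other strand. It was called in the same 4 lists as Cdkn1a, the 3 H/R lists and control A. Its strongest fold was 8.17, 14.55 and 12.31 in the H/R lists and 24.3 in control A. Called in every H/R list and in no control list were 5.84% of 4089 lncRNA transcripts, and Trp53cor1 was not one of them.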

How the data were processed

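According to the submitters' processing notes, the tools included cutadapt 1.9.3 for trimming and HISAT2 2.0.4 for alignment to mm10. For each library the authors ran MACS (version not given in the sources used here) on the IP with the input as background, and kept the parts on exons. Replicates were not pooled. Each deposited list gave a p score (10 times the -log10 of the p), a fold enrichment ratio over the local background, a false discovery rate in percent and a peak length in bases. The deposited lists give no read counts and read totals were not used, so intervals that depend on depth were left out. Which replicate number of the labels a library letter stands for is not known. Starts are printed counted from 1.

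Peaks were matched by symbol in the 6 mRNA lists. Regions were merged from peaks of the same gene that overlapped by at least 1 bp. Calls compared every H/R list with every control list, peak counts and log2 folds were tested by two-sided exact permutation over libraries, and p-values were Benjamini-Hochberg adjusted over all genes. Transcript models came from GENCODE and RefSeq (same build). Alternatives were a fold of at least 10, a p score of at least 100, lists of equal length (7863 peaks with the highest p score), a stricter overlap and leaving out each library. The genes named are the 10 members and, for each further list, the genes called in every list of 1 group and none of the other, plus up to 3 of those in all 6 lists with the highest minimum of the strongest fold. The members and lists were chosen with earlier results of these data known. Comparisons of p scores, of percentiles and of lncRNA and circular RNA peaks, and the joint omission of control A and H/R B, were added after seeing the data. The counting was tested on simulated data. Python (version 3.11.15) and pandas (version 2.3.3) were used.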

Additional observations from a re-analysis of the deposited data

Results flagged for a closer look

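4930429B21Rik is an lncRNA transcribed from the strand opposite to Zmat3 at its start (chr3:32365489-32367393), and 162 bases of its peaks lie over exons of Zmat3. It was singled out because it had a peak in data outside the mRNA lists in 3 H/R lists and in 0 control lists. H/R A, B and C had folds of 10.77, 18.73 and 16.24 and p scores of 150.42, 203.37 and 635.32. Called in every H/R list and in no control list were 5.84% of 4089 lncRNA transcripts. Zmat3 itself had no mRNA peak there. Whether the reads came from the strand of Zmat3 or from that of the lncRNA was not tested. Groups of 3 libraries were too small for a search for outlying libraries.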

How the results depend on the processing

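The difference in genes called per library, 1.0 with full lists, was 0.333 with a fold of at least 10 and 2.0 with a p score of at least 100, and it turned to -0.333 with lists of equal length. Sesn2 no longer had more peaks or more covered bases in every H/R list under any of these 3 filters, so both counts were 0. Regions in all 6 lists numbered 3 of the member genes with a p score of at least 100, 4 with lists of equal length and 5 otherwise. The number of pathway genes called in every H/R list and in no control list, 3 with full lists, was 1 with a fold of at least 10. It was 0 with lists of equal length, where 1.13% of all genes met the call. For single genes, the difference in peaks turned to -0.333 for Mdm2 with a fold of at least 10 and for Mdm4 with lists of equal length. The causes were not tested. Members with a lower strongest fold stayed at 2 under all 3 filters, Mdm2 and Sesn2. Their strongest peaks passed these filters in every list with unchanged folds, so the filters could not lower this count. The matching share over all genes was not computed under the filters. With 1 library left out, the difference in genes called ranged from 0.333 to 1.333. Genes called in H/R only ranged from 0 to 1 (Cdkn1a without control A, where 10.8% of all genes met the call). Genes with more peaks ranged from 1 to 2 (Cdkn1a without control A, where 26.0% of all genes did). Genes with more covered bases ranged from 1 to 2 (Cdkn1a without control A, 27.4% of all genes, and Mdm4 without H/R C, 23.3%). Genes with a lower strongest fold ranged from 2 to 3 (Bbc3 without control A, Sesn1 without H/R B or control C). Of the genes called in all remaining lists, 65.3, 68.8 and 67.5% met this call in these 3 settings. Regions in all lists ranged from 5 to 6 (Sesn1 exon 10 without control B). Pathway genes called in H/R only ranged from 3 to 8. They numbered 8 without H/R B, where 11.7% of all genes met the call, and 5 without control C, where 5.48% did. With fewer libraries these calls are easier to meet. Without both control A and H/R B, chosen after seeing the data, these were 1 gene called in H/R only and 10 pathway genes (20% of all genes met this call), 3 with more peaks (44.7%), 3 with more covered bases (43.7%) and 4 with a lower strongest fold (77.4%). No paired analysis was possible because it is not known which replicate number of the labels a library letter stands for. With 3 against 3 libraries no p below 0.1 was possible, and read totals were not used.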
